A study of Mus musculus with 1 sample.

Results

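B cells of the Scap f/f mouse pancreas were the 362 cells, of 10129 retained cells and 11789 barcodes in all, that carried transcripts of the B cell receptor subunits *Cd79a* and *Cd79b* or of the surface protein *Ms4a1* (CD20). They were chosen by a count rule. A retained cell had more than 800 and fewer than 10000 UMIs (unique molecular identifiers, 1 for every transcript caught) and under 15% mitochondrial UMIs. A B cell had at least 2 UMIs of *Cd79a*, *Cd79b* and *Ms4a1* together, no UMI of the T cell genes *Cd3d*, *Cd3e*, *Cd3g* and *Trac*, no UMI of the cycling genes *Mki67* and *Top2a*, and fewer than 10 UMIs of the collagens *Col1a1* and *Col3a1*. Levels of these genes therefore chose the members and are given as a description. B cells made up 3.57% of retained cells (exact 95% binomial interval 3.22 to 3.95). This share leaves out shallow barcodes. Of 717 barcodes at or under 800 UMIs with under 15% mitochondrial UMIs, 154 met the other B cell rules.

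The study asked how loss of *Scap*, the escort protein of the SREBP lipid regulators, in the *Pdx1-Cre* lineage changes the cells of the pancreas. The library analysed was its control, Scap f/f, in which floxed *Scap* alleles are present without Cre, at 2 weeks of age. It was 1 droplet library of 3′ transcript ends made from the pooled, enzyme-digested pancreata of 5 to 6 mice, males and females in equal number, after removal of dead cells, so no value can be given per animal and no test between animals was made. Its Scap Δpanc counterpart was not analysed here. A level is the summed UMIs of a gene per 1000000 UMIs of a class of cells (CPM). Brackets hold 95% intervals, exact Poisson for levels, Clopper-Pearson for shares and conditional for ratios, which cover counting error only.

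B lymphocytes recognise antigen through a surface immunoglobulin of a heavy chain and a kappa or lambda light chain, which signals through *Cd79a* and *Cd79b*. They form in the liver before birth and in the bone marrow afterwards, pass through a transitional stage in spleen and blood, and recirculate as naive follicular cells that carry IgM and IgD. After activation they can switch isotype, enter germinal centres or become plasma cells. In the mouse, most B cells use the kappa chain, and a cell usually carries either kappa or lambda.

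The 362 cells held 610552 UMIs, with a median of 1377 UMIs (806 to 9537) and 767 genes per cell. They were set beside the 758 T cells of the library (at least 2 UMIs of the T cell genes, no UMI of the B cell genes, the same other limits), which had a median of 1637 UMIs and 1563266 in all, and beside 5735 fibroblasts (at least 10 collagen UMIs, no leukocyte or cycling UMI) with a median of 2621. Macrophages chosen in the same way numbered 11, and their values rest on 37735 UMIs. A random draw of 800 UMIs from every cell, called thinning below, left out no cell. Shares of cells with a UMI are at full depth unless thinning is named. At full depth the B cells were shallower than the T cells and fibroblasts, so such shares are not equal in depth.

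The label held against markers that the rule did not use. *Bank1*, a B cell scaffold protein, had a UMI in 76.5% of members (71.8 to 80.8), against 0.396% of T cells. *Ighm*, the IgM heavy chain, was seen in 90.6% (87.1 to 93.4) against 16.9% of T cells, and *Ptprc* (CD45), carried by all leukocytes, in 68.5% against 85.6%. Of 10 T cell markers, 4 were at 0 by the rule. The 6 that no rule used were all detected and summed to 59.0 CPM in B cells (41.3 to 81.6), 2119 CPM in T cells and 147 CPM in fibroblasts. Of 7 macrophage markers, *C1qc* alone was at 0, and the set summed to 81.9 CPM against 11952 CPM in macrophages. The endothelial set of *Pecam1*, which leukocytes also carry, *Cdh5* and *Kdr* summed to 560 CPM in B cells and 207 CPM in T cells, and after thinning lay in 27.6% and 14.0% of cells. At least 3 UMIs of *Cdh5* and *Kdr* lay in 6 members. The 4 globin genes of red blood cells summed to 4432 CPM in B cells and 8103 CPM in T cells, were found in 62.7% and 63.2% of cells, and reached 1906 UMIs in a single B cell. The 6 fibroblast markers summed to 1132 CPM in B cells, 986 CPM in T cells and 49560 CPM in fibroblasts. They were found in 77.9% of B cells and 77.6% of T cells at full depth, and in 64.6% and 51.45% after thinning. At least 3 macrophage UMIs lay in 4 members, at least 3 *Trbc1* and *Trbc2* UMIs in 3, and at least 3 *Hbb-bs* UMIs in 12. The part of this RNA in the values below was not tested, beyond leaving out such members.

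Digestive enzyme transcripts of acinar cells were present in 100.0% of B cells. Their share of a B cell's UMIs had a median of 1.03% and reached 47.9%, and 26 members lay above 10%. The T cells had a median of 0.882%. Over all cells of a class the share was 3.80% in B cells and 3.29% in T cells. Set against the share in all barcodes, this would put an estimated 31.9% of B cell UMIs and 27.6% of T cell UMIs in a background with the profile of all barcodes. The pooled share is raised by the members richest in enzyme UMIs and lies above the median of 1.03%. The estimate thus describes the summed enzyme UMIs and not a typical B cell, and other transcripts need not follow it. Fibroblast markers held 896752 UMIs in fibroblasts alone, of 51540177 UMIs in all barcodes. They stood at 1132 CPM in B cells, below what such a background would bring. Because RNA of other cells was present, shares of cells with a UMI are given beside those of T cells. Scrublet marked 4 of the 362 members as doublets, and 502 of the 10129 retained cells.

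The threshold lay inside a continuum. Members had 2 to 24 UMIs of the 3 rule genes with a median of 4, and 74 of them (20.4%) stood exactly at 2. A further 63 cells met the other limits with exactly 1 UMI. *Bank1* was detected in 75.7% of the 74 cells at the threshold and in 50.8% of the 63 cells just below it, *Igkc* in 86.5% and 52.4%, and *Pax5* in 36.5% and 22.2%. Of the 3 rule genes, 151 members had all, 168 had 2 and 43 had 1.

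Before exclusions, 528 retained cells had 2 or more B cell UMIs. A T cell UMI was found in 65 of them, a cycling UMI in 63 and 10 or more collagen UMIs in 68, and 166 were left out in all, of which Scrublet marked 49. Cycling alone removed 40, which were looked at after the data had been seen. These cycling cells were deeper, with a median of 2744 UMIs. After thinning, *Igll1*, a surrogate light chain gene of B cell precursors, was found in 8 of the 40 (9.05 to 35.6%) and in 0.276% of members (0.00699 to 1.53). *Vpreb3* was found in 37.5% (22.7 to 54.2) against 19.3% of members (15.4 to 23.8), and *Bank1* in 27.5% (14.6 to 43.9) against 62.2% (56.9 to 67.2). A single cycling cell held 194 UMIs of *Jchain*, the joining chain of secreted IgM and IgA. The members described here are thus B cells without detected *Mki67* or *Top2a*. Of the 14 genes read in both sets, the intervals after thinning did not overlap for *Igll1*, *Vpreb1*, *Bank1*, *Fcer2a*, *Igkc* and *Ptprc*. *Fcer2a* was then found in 0 of the 40 and in 13.5% of members, *Igkc* in 67.5% and 86.7%, and *Ptprc* in 17.5% and 48.9%. The 14 were chosen genes, and the share over all genes was not worked out. How many genes at large would part these sets is therefore not known.

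Sequences are shown for 2 genes that the results below turn on. *Bank1* marked members without being used to choose them, and *Vpreb3* marked a subset of them. Each line gives the 250 bases before the RefSeq transcription start on GRCm38.p6, 5′ to 3′ on the strand of the gene. Capitals mark CCCNNGGG, the core letters of the EBF1 site, in *Bank1*, and the octamer ATTTGCAT, bound by the Oct factors, in *Vpreb3*. The windows lie at chr3:136326067-136326316 on the minus strand and chr10:75948050-75948299 on the plus strand. The latter lies within the span that GENCODE M21 gives for *Vpreb3*, outside its annotated exons.
Bank1: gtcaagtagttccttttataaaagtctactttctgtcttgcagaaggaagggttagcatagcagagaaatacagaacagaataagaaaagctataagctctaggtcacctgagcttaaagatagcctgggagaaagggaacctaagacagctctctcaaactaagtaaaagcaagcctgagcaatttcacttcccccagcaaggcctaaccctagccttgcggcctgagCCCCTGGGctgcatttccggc
Vpreb3: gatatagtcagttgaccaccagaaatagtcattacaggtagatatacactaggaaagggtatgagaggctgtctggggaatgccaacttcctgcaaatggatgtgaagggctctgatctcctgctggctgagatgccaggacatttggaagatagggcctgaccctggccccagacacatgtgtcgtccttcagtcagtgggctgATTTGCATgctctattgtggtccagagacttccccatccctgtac

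Both motifs and the ETS letters GAGGAA were searched on both strands in all 32851 such windows. Of 70 listed genes of the receptor, coreceptor, signalling, transcription factor, transitional and follicular lists, 47 had a window, 60 windows in all. The octamer (ATGCAAAT or its reverse complement) was in 3 of the 60 (5.00%) and in 1.60% of all windows. CCCNNGGG was in 9 of the 60 and in 11.8% of all windows, and GAGGAA in 33.3% and 23.3%. These are descriptions of letters, and binding was not measured. The octamer windows belonged to *Vpreb3*, *Blnk* and *Prkcb*, a pre-B cell protein, the adaptor of B cell receptor signalling and a protein kinase C. They are set side by side with 10 bases on either side, in capitals the octamer, which began 45, 130 and 70 bases before the start. The sites lie at chr10:75948245-75948272 (plus strand), chr19:40994334-40994361 (minus strand) and chr7:122289045-122289072 (plus strand). All 3 lie within the spans that GENCODE M21 gives for these genes, so their distances depend on the RefSeq start used.
Vpreb3 site: cagtgggctgATTTGCATgctctattgt
Blnk site: actggaagggATTTGCATgcccaataag
Prkcb site: cctgggtttcATGCAAATgagggaggcg

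More than 1 in 2 listed genes stood at least 2-fold above T cells. Of 212 listed genes other than the rule genes, 156 had at least 20 UMIs in B and T cells together, and 80 of these were at least 2-fold higher in B cells, with 12 at least 2-fold lower (ratio of CPM + 10). Over all 8511 genes with that many UMIs, 7.26% were at least 2-fold higher in B cells and 6.3% at least 2-fold lower. The median log2 ratio was 1.07 over the listed genes and 0.01 over all. Such counts describe these 2 sets of cells of 1 library and have no replicate. The lists were made for B cells, with earlier results of these data known. Their excess over all genes is therefore a description and gives no support to the label. The plot of ratios by list shows where the higher genes lay.

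**Figure D1:**
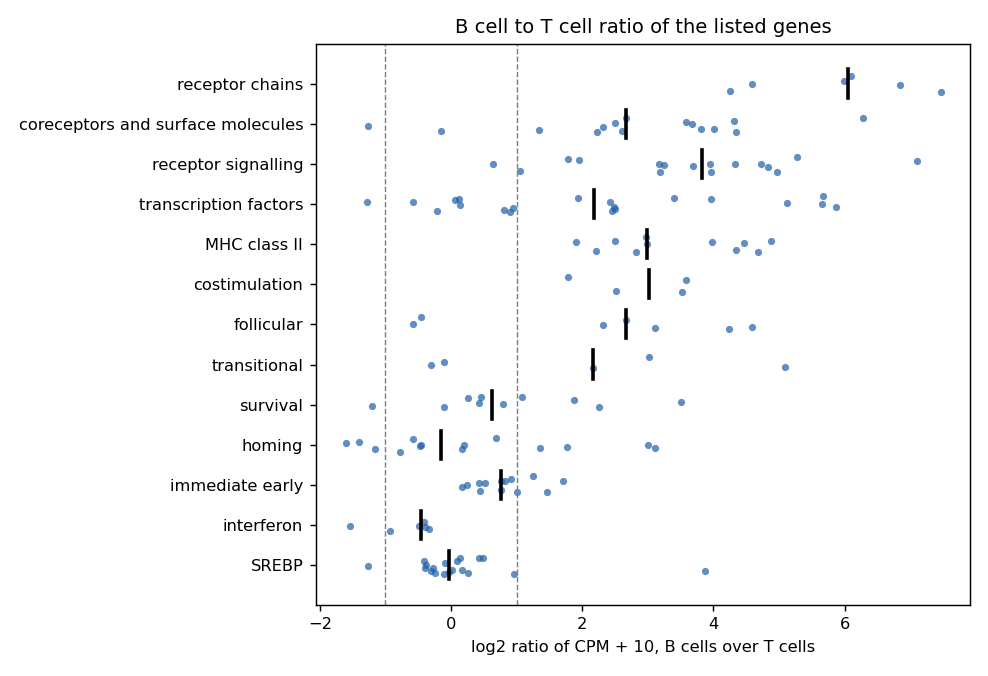
Each point is a listed gene with at least 20 UMIs in B and T cells together, rule genes left out. The horizontal axis gives the log2 ratio of CPM + 10 in B cells over T cells, the vertical axis the list, black bars are medians and dashed lines mark 2-fold. All 6 receptor chains and all 11 MHC class II genes lie beyond the upper line, while 17 of 19 SREBP genes lie between the lines.

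Receptor chains opened the list. The rule gene *Cd79a* (chr7:24897381-24902197) had 1428 CPM in B cells, *Cd79b* (chr11:106311341-106314762) 896 CPM and *Ms4a1* (chr19:11249675-11266241) 798 CPM, and all 3 were at 0 in T cells and fibroblasts, which the class rules fix. *Ighm* (chr12:113418558-113422730) had 2134 CPM (2020 to 2253) in B cells against 103 CPM in T cells and 11.0 CPM in fibroblasts. *Ighd*, the IgD heavy chain gene (chr12:113406604-113416324), had 339 CPM (294 to 389) against 4.48 CPM in T cells. *Igkc*, the kappa constant region (chr6:70726435-70726966), had 4240 CPM (4079 to 4407) against 14.1 CPM in T cells and 8.90 CPM in fibroblasts. The lambda constant genes *Iglc1*, *Iglc2* and *Iglc3* had 942, 1505 and 749 CPM, and each was below 4 CPM in T cells. *Iglc2* and *Iglc3* are near-identical copies, so how reads were shared between them is uncertain. Immunoglobulin genes together took a median of 1.08% of a B cell's UMIs, and at most 3.46%.

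**Figure D2:**
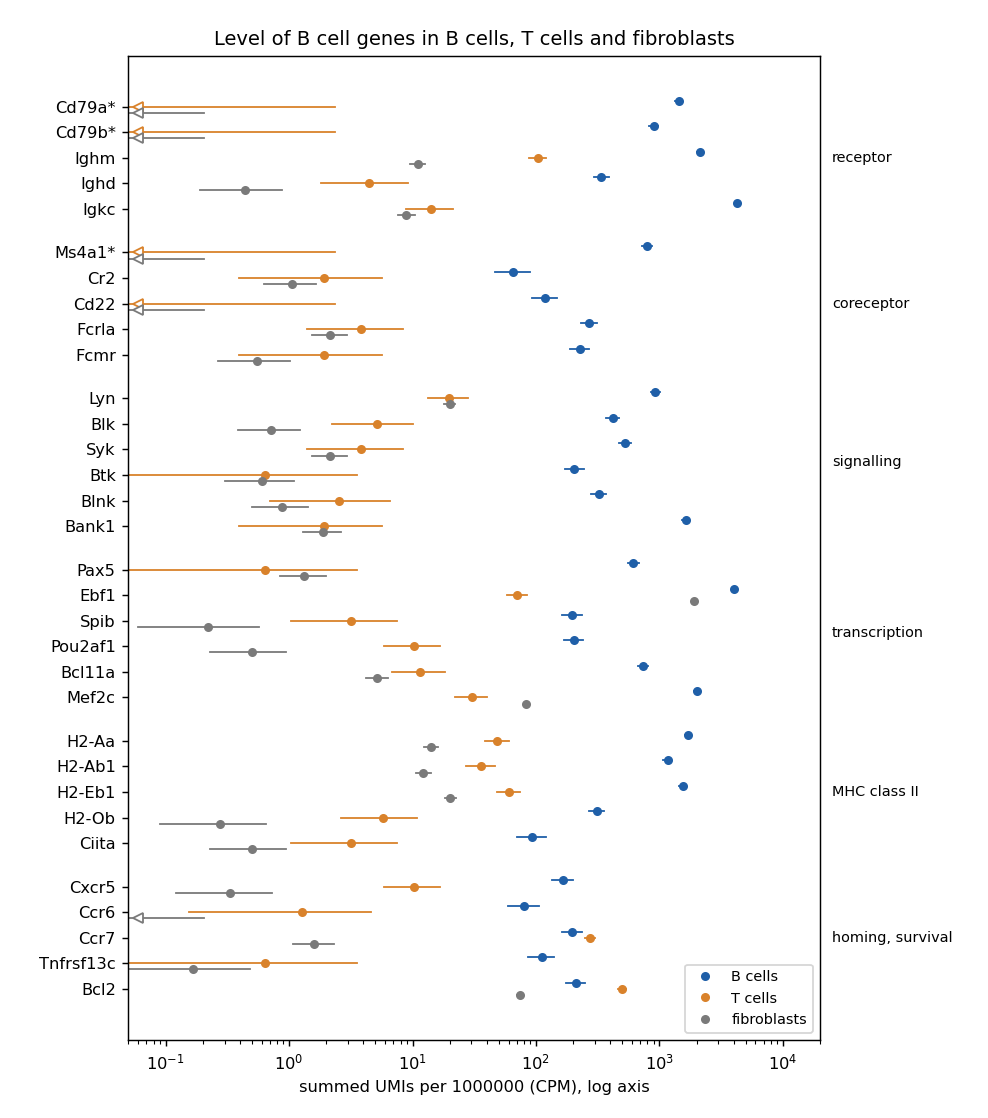
Points give the level of a gene in B cells, T cells and fibroblasts in summed UMIs per 1000000 (CPM, log axis), and bars the exact 95% Poisson interval. Open triangles at the left edge mark a count of 0, and an asterisk a gene used by the rule. B cells lie to the right for *Igkc* (4240 CPM) and *Bank1* (1633 CPM), and T cells for *Bcl2* (499 against 211 CPM).

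Most members carried IgM transcripts. *Ighm* had a median of 3 UMIs per cell, with quartiles of 1 and 5 and a highest value of 28. *Ighd* was detected in 38.7% of cells at full depth and in 22.9% after thinning to 800 UMIs (18.7 to 27.6), against 0.528% of thinned T cells. Of the 362 cells, 128 had both, 12 had *Ighd* alone and 22 had neither. The *Ighd* share moved by more than 1.5 times between the depths.

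Switched isotypes were rarely detected. The 6 genes *Ighg1*, *Ighg2b*, *Ighg2c*, *Ighg3*, *Igha* and *Ighe* gave 5 UMIs in 3 cells, 0.33% of the 1515 heavy chain UMIs (0.107 to 0.769). These cells held 1 or 2 switched UMIs beside 6 to 9 UMIs of *Ighm* and *Ighd*. A cell was called switched with at least 3 switched UMIs that outnumbered *Ighm* and *Ighd*, and 0 of 362 cells were. This allows a share of called cells of up to 0.829% at 3 counts (exact upper limit 1.01%). It does not limit switched cells with too few UMIs for a call. *Ighm* itself had a median of 3 UMIs and a lower quartile of 1, and 22 cells had neither *Ighm* nor *Ighd*.

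Light chains did not fall into separate kappa and lambda cells. At least 5 light chain UMIs were present in 311 cells. With a call at 80% or more of one kind, 64 cells (20.6%, 16.2 to 25.5) were called kappa, 34 (10.9%, 7.69 to 14.9) lambda, and 213 (68.5%, 63.0 to 73.6) held both. The share held by cells with both did not shrink with depth, at 68.9% of 209 cells with 10 or more light chain UMIs and 75.4% of 61 cells with 20 or more. *Igkc* UMIs were in 1.58% of T cells and 2.14% of fibroblasts, and *Iglc* UMIs in 0.924% and 1.13%, at greater median depths than the B cells. Per cell, *Igkc* took a median of 58.3% of light chain UMIs, with quartiles of 41.4% and 74.6%. The commonest class, 66 cells, lay from 50% to 60%. Raising the call to 90% left 9.65% of cells kappa. With the 4 members that Scrublet marked removed, the kappa share was 20.8%. Why so many cells held both was not tested.

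**Figure D3:**
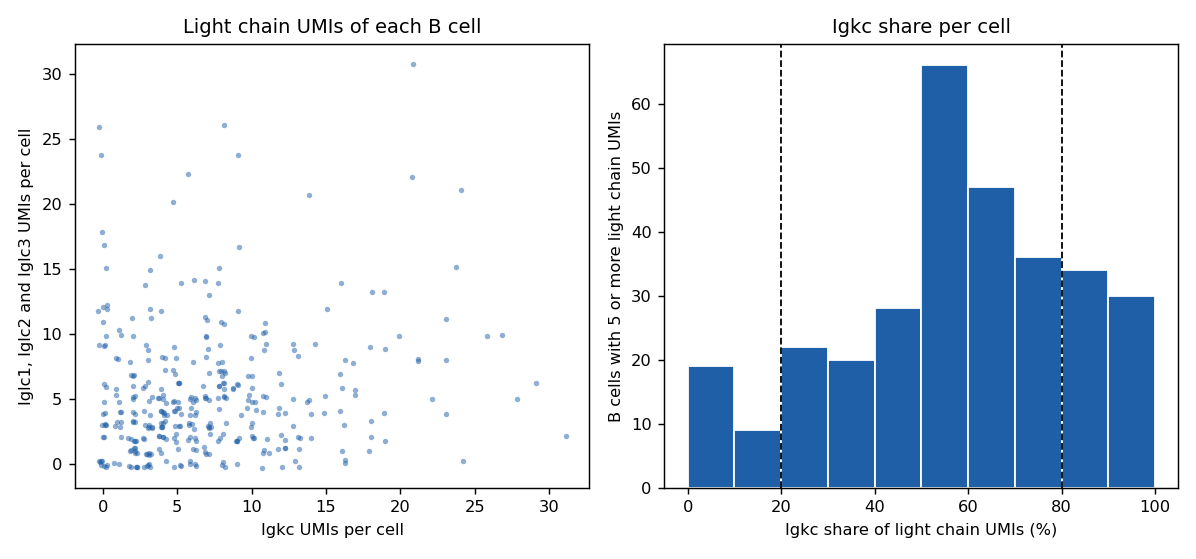
Left, *Igkc* UMIs (horizontal) and summed *Iglc1*, *Iglc2* and *Iglc3* UMIs (vertical) of each of the 362 B cells, with points shifted by at most 0.3 UMIs for visibility. Right, the number of the 311 cells with 5 or more light chain UMIs by their *Igkc* share in percent; dashed lines mark the calls at 20% and 80%, and the highest bar, 66 cells, lies from 50% to 60%.

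Variable gene transcripts gave a second reading of the same chains. The 3′ library caught few of them. In B cells, 26 UMIs lay in 20 *Ighv* genes, 92 in 31 *Igkv* genes and 23 in 3 *Iglv* genes, against a single UMI in T cells. The most seen were *Igkv2-109* with 14 UMIs in 13 cells, *Iglv3* with 12 in 12, *Igkv1-110* with 11 in 9, *Iglv1* with 10 in 10 and *Igkv19-93* with 6 in 5. No V gene dominated among the kappa genes, while *Iglv3* and *Iglv1* held most of the 23 lambda V UMIs. A kappa V UMI without a lambda V UMI was found in 71 cells, of which 68 had enough light chain UMIs, and their *Igkc* share had a median of 66.7%. The 16 such cells with a lambda V UMI and no kappa V UMI had a median of 50%. Calls were 20 kappa, 4 lambda and 44 both in the former, and 0 kappa, 5 lambda and 11 both in the latter. The median *Igkc* share was thus lower in the cells with a lambda V UMI, and mixed calls were the commonest in both sets. A V UMI of both kinds was found in 2 cells.

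The coreceptor and surface list had 13 of 15 genes at least 2-fold higher in B cells and 1 at least 2-fold lower. Of all genes, 7.26% were higher and 6.3% lower. *Ly6d*, a surface protein of committed B lineage cells, had 1708 CPM in B cells against 12.2 CPM in T cells. The inhibitory lectins *Cd22* and *Siglecg* had 118 and 110 CPM and no UMI in T cells, and their ratios had exact lower limits of 48.7 and 45.2. *Fcmr*, the IgM Fc receptor, had 226 CPM against 1.92 CPM. *Cd52*, shared by lymphocytes, lay inside 2-fold, at 2850 and 3173 CPM, and *Cd2*, an adhesion receptor, had 83.5 CPM against 215 CPM in T cells.

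Receptor signalling genes were higher in B cells in 15 of 16 cases, beside 7.26% of all genes. The Src family kinase *Lyn* had 922 CPM (848 to 1002) against 19.8 CPM in T cells, *Blk* 419 against 5.12 CPM, and the kinase *Syk* 527 against 3.84 CPM. *Btk*, the kinase lost in agammaglobulinaemia, had 205 against 0.64 CPM, and the adaptor *Blnk* 323 against 2.56 CPM. *Bank1* (chr3:136053363-136326066) was 851-fold higher (290 to 4133), on 997 UMIs in B cells and 3 in T cells. The phosphatase *Ptpn6*, which restrains receptor signals in both, was 2.17-fold higher (1.72 to 2.75).

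Transcription factors split by lineage, with 11 of 20 higher in B cells, 8 inside 2-fold and 1 lower. Of all genes, 7.26% were higher and 6.3% lower. *Pax5*, which commits cells to the B lineage, had 614 CPM (554 to 680), on 375 UMIs against 1 in T cells. *Ebf1* had 4037 CPM in B cells and 70.4 CPM in T cells, and also 1917 CPM in fibroblasts, so it was not confined to B cells in this tissue. *Mef2c* had 2033 CPM against 30.1 CPM, *Bcl11a* 740 against 11.5 CPM, *Spib* 197 against 3.20 CPM and *Pou2af1*, the Oct coactivator, 203 against 10.2 CPM. Factors of both lineages lay close together, as *Ets1* at 667 and 777 CPM and *Foxo1* at 329 and 303 CPM. *Klf3* was the lower gene, at 67.2 against 177 CPM.

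Genes of antigen presentation to CD4+ T cells stood high in B cells. The classical MHC class II chains *H2-Aa*, *H2-Ab1* and *H2-Eb1*, which form the peptide-binding molecules, summed to 4411 CPM in B cells (4246 to 4581), 3949 CPM in the 11 macrophages (3340 to 4636), 145 CPM in T cells (126 to 165) and 46.6 CPM in fibroblasts (43.5 to 49.8). Among members, 87.8% had a UMI of them, with a median of 6.5 UMIs and a range of 0 to 52, against 2.90% of T cells. The macrophage level came from 3 of the 11 cells. All 11 genes of the class II list were at least 2-fold higher in B cells than in T cells, beside 7.26% of all genes. *H2-Ob*, a chain of the DO modulator of peptide loading, had 310 CPM against 5.76 CPM, *H2-DMa* 187 against 17.9 CPM, and *Ciita*, the master regulator, 93.4 against 3.20 CPM. The summed level was 2938 CPM when the 3 exclusions were dropped, a move of over 1.5 times. The costimulation list had 4 of 4 genes with enough UMIs higher, among them *Cd86* at 282 against 15.4 CPM and *Cd83* at 391 against 23.7 CPM. *Cd80*, the partner of *Cd86* raised on activated cells, gave 2 UMIs.

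Homing genes were mixed, with 4 of 14 higher in B cells, 3 lower and 7 between. Of all genes, 7.26% were higher and 6.3% lower. *Cxcr5*, the follicle homing receptor, had 165 CPM (135 to 201) against 10.2 CPM in T cells, and *Ccr6* 80.3 against 1.28 CPM. Their ligands were looked for in fibroblasts. *Cxcl13*, the ligand of *Cxcr5*, had 119 CPM there, from 3.96% of the fibroblasts, and 1.64 CPM in B cells, and *Ccl20*, that of *Ccr6*, had no UMI in any of the 4 classes. *Cxcr4* had 354 against 96.6 CPM, and its ligand *Cxcl12* 232 CPM in fibroblasts. The lymph node receptor *Ccr7* was shared, at 197 and 274 CPM. *Itgb7*, an integrin chain of gut homing, was lower in B cells, at 44.2 against 134 CPM.

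The survival list had 4 of 10 genes higher and 1 lower, beside 7.26% and 6.3% of all genes. *Tnfrsf13c*, the BAFF receptor, had 111 CPM (86.5 to 141) on 68 UMIs, against 1 UMI in T cells. *Tnfrsf13b* (TACI) was 6.64-fold higher (4.37 to 10.3) and *Birc3* 4.05-fold (3.17 to 5.21). *Bcl2*, the inhibitor of cell death, was lower, at 211 against 499 CPM. The BAFF gene *Tnfsf13b* gave no UMI in B cells and 3.65 CPM in fibroblasts. Cytokine genes were sparse. Of 3 with enough UMIs, *Tgfb1* alone was at least 2-fold higher in B cells (33.3%, against 7.26% of all genes). *Ltb*, a subunit of lymphotoxin, had 424 CPM against 232 CPM, while *Il10* and *Tnf* had no UMI in B cells, which allows up to 4.91 CPM at 3 counts (exact upper limit 6.04 CPM).

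Lists of B cell stages were read beside T cells, and the rule had already left out cycling cells. The follicular list had 5 of 7 genes higher than in T cells and the transitional list 3 of 5, beside 7.26% of all genes. *Fcer2a* (CD23, chr8:3681737-3694175) had 192 CPM (158 to 230) in 22.9% of members and 0.132% of T cells. *Vpreb3* (chr10:75943057-75949657) had 373 CPM (326 to 425) in 30.4% of members and 0.264% of T cells. In the germinal centre list, *Gcsam* and *Mybl1* had no UMI, *Bcl6*, a repressor needed for germinal centres, had 102 against 30.7 CPM in 14.6% of members and 5.41% of T cells, and *Fas* was lower, with 2 UMIs against 56. In the plasma cell list, *Tnfrsf17* had no UMI, *Jchain* had 2, and 0 of 3 genes with enough UMIs passed 2-fold. *Xbp1* and *Fkbp11*, of the secretory programme, were found in 7.73% and 5.52% of members and in 7.78% and 4.35% of T cells. Precursor genes were near 0, with 7 UMIs of *Rag1*, 8 of *Vpreb1* and 10 of *Igll1* over all 362 cells, and *Il7r*, the receptor of precursor B cells and of T cells, was at 27.8 against 263 CPM. Of the B-1 list, *Bhlhe41* had 49.1 CPM in 25 cells and no UMI in T cells, while *Cd5*, with 2 UMIs, and *Spn*, with 4, were at least 2-fold lower than in T cells. Of the marginal zone list, *Cr2*, also a follicular gene, had 65.5 CPM and *Cd1d1* gave 3 UMIs.

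Marks of maturity were read after thinning. A UMI of *Fcer2a* or *Cr2* without *Cd93*, a receptor of immature B cells, marked 65 cells as mature (17.96%, 14.1 to 22.3). A UMI of *Cd93* without the others marked 15 as immature (4.14%, 2.34 to 6.74), and most cells had no mark. *Cd93* is also an endothelial gene, and at full depth 24 of its 44 UMIs lay in members with at least 3 UMIs of *Cdh5* and *Kdr*. At full depth, 27.1% were marked mature, a move of over 1.5 times.

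Members were split by *Vpreb3* and by *Fcer2a* or *Cr2*. This split was chosen after the data had been seen. After thinning, 65 cells had *Vpreb3* without *Fcer2a* or *Cr2*, 62 had *Fcer2a* or *Cr2* without *Vpreb3*, 5 had both and 230 had neither. *Fcer2a* or *Cr2* was found in 7.14% of the *Vpreb3* cells (2.36 to 15.9) and in 21.2% of the other cells (16.7 to 26.4). The former share rests on 5 of 70 cells in this thinning draw. The intervals cover counting error only and lay close, with limits of 15.9% and 16.7%. How many other genes would part the *Vpreb3* cells in this way was not worked out, so the difference is a description. At full depth, 110 cells had *Vpreb3*, 83 had *Fcer2a* and 16 had both. The cells were of one library and are not replicates, and no test was made. The *Vpreb3*-marked cells had a median of 1140 UMIs and the *Fcer2a* or *Cr2*-marked cells 1360.

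Few listed genes parted these 2 sets by 2-fold. Of 98 with at least 20 UMIs in the sets together, marks and rule genes left out, 5 were at least 2-fold higher in the *Fcer2a* or *Cr2*-marked cells (5.10%, against 3.86% of all 1660 genes) and 6 at least 2-fold lower (6.12%, against 6.99%). The shares were thus near those of all genes. Another thinning draw and full depth reuse the same cells and UMIs of 1 library, so agreement with them is not separate support. The 5 higher genes were past 2-fold in both of these too. Among them were *Myc*, with 29 against 5 UMIs (ratio 4.78, 1.83 to 15.8, and 2.48 at full depth), *Bcl2* (3.16, 1.25 to 9.48), *Bcl6* (3.02, 1.19 to 9.10) and *Cd83* (2.66, 1.52 to 4.90). Of the 6 lower genes, 3 were past it in all 3 splits. These were *Spib*, with 11 against 47 UMIs (0.193, 0.0901 to 0.377), *Cd72*, an inhibitory coreceptor, with 5 against 24 (0.172, 0.0511 to 0.459, and 0.443 at full depth), and *Cd24a*, high on immature B cells, with 22 against 50 (0.362, 0.209 to 0.610). Within 2-fold, the *Vpreb3*-marked cells had more *Ighm* (3250 against 2031 CPM, ratio 0.625, 0.521 to 0.749) and less *H2-Aa* (1452 against 2249 CPM, ratio 1.55, 1.24 to 1.94) and *Mef2c* (ratio 1.90, 1.54 to 2.34). For *Ighd*, the interval of the ratio of 1.42 spanned 1 (0.881 to 2.33).

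**Figure D4:**
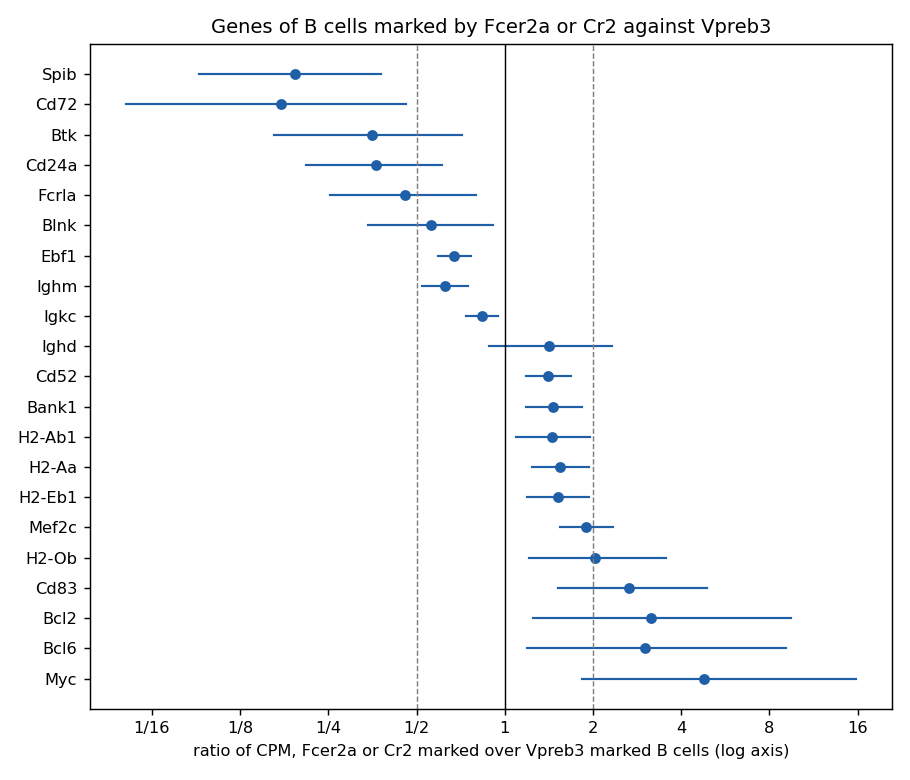
Points give the ratio of CPM in the 62 B cells marked by *Fcer2a* or *Cr2* over that in the 65 marked by *Vpreb3* (log axis), and bars its exact 95% interval. The solid line marks equal levels and dashed lines 2-fold. In this draw *Spib* (0.193) and *Cd72* (0.172) lie lowest and *Myc* (4.78) highest. At full depth *Cd72* is at 0.443 and *Myc* at 2.48, below *Bcl6* at 3.21.

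Immediate early, interferon and lipid genes were compared with T cells in the same way. Of 13 immediate early genes with enough UMIs, 4 (30.8%, against 7.26% of all genes) were at least 2-fold higher in B cells and 0 lower. They were *Cd69* (2.50-fold, 2.03 to 3.09), *Myc* (3.68-fold, 2.76 to 4.95), *Zfp36* (2.89-fold, 2.37 to 3.53) and *Jund* (2.02-fold, 1.82 to 2.25). Of these 4, *Jund* (1634 against 1006 CPM) and *Zfp36* (1307 against 355 CPM) were higher in fibroblasts than in B cells. *Cd69* (0.663 CPM) and *Myc* (37.8 CPM) were lower in fibroblasts. *Fos* had 804 CPM in B cells, 422 in T cells and 4560 in fibroblasts. Of 6 interferon-response genes, 0 were higher (7.26% of all genes) and *Zbp1* alone was lower (6.3% of all genes), with 2 UMIs against 45. The SREBP list (cholesterol and fatty acid synthesis), the pathway the study targets, had 1 of 19 genes higher (5.26%, near the share of all genes), 1 lower and 17 between. *Scap* itself had 31.1 CPM (18.7 to 48.6) against 39.7 CPM in T cells and 28.7 CPM in fibroblasts, and *Srebf2* 103 against 70.4 CPM. The higher gene was *Scd1*, the stearoyl-CoA desaturase (chr19:44394455-44407879), with 183 CPM (151 to 221) in B cells, 3.20 CPM in T cells and 57.5 CPM in fibroblasts. It was found in 24.3% of B cells, 0.66% of T cells and 12.6% of fibroblasts. The lower gene was the elongase *Elovl6*, with 5 UMIs against 53. The paralog *Scd2* had 44.2 and 48.6 CPM.

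Outside the lists, 20 genes with at least 50 UMIs in B cells were taken by the largest ratio to T cells. They were *Gm31243*, *Wdfy4*, *Cd180*, *Agbl1*, *Dennd5b*, *March1*, *Napsa*, *Ptprj*, *Gm30211*, *Chst3*, *Bcar3*, *Fam43a*, *Ly86*, *Cybb*, *Lrrk2*, *Kynu*, *Unc93b1*, *Rasgef1b*, *Slc9a7* and *Arhgap24*. *Gm31243* led with 591 CPM (532 to 656) in 53.9% of members against 1.28 CPM in 0.264% of T cells. Its span (chr3:135904344-136167184, plus strand) overlaps that of *Bank1* on the other strand, and that of *Gm30211* (chr6:70719074-70740554, plus strand) holds *Igkc*, so reads of these pairs may be shared and both values are uncertain. *Cd180*, a Toll-like receptor homologue, and *Ly86* (MD-1), which binds it, had 300 and 257 CPM against 2.56 and 6.40 CPM. *Unc93b1*, which carries nucleic acid sensing Toll-like receptors to endosomes, had 275 against 12.8 CPM, and *March1*, a ligase that marks MHC class II for turnover, 270 against 3.20 CPM. Macrophages also held *Ptprj* (716 CPM), *Unc93b1* (583 CPM), *Cybb* (424 CPM) and *Ly86* (318 CPM). *Agbl1* was found in 48 cells with 133 UMIs. Among the 10 lowest ratios of genes with at least 50 T cell UMIs were those of *Ms4a4b*, *Gm2682*, *Skap1*, *Cd247*, *Bcl11b*, *Cd28*, *Fyb*, *Tox* and *Txk*, several of them parts of T cell receptor signalling. *Cd28*, the costimulatory receptor of T cells, had 1 UMI in B cells and 535 in T cells. The 5 genes with the most UMIs in B cells were *Malat1* (10350), *Tmsb4x* (7260), *Gm42418* (6923), *Ctrb1* (6706) and *Rps29* (5684). Of these, *Ctrb1* is a digestive enzyme of acinar cells, at 10984 CPM in B cells and 9165 CPM in T cells.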

How the data were processed

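The authors aligned the reads of 1 droplet library to mm10 with Cell Ranger 7.1.0, as the header of the matrix and the submitters' processing notes state. They deposited counts, that is UMIs by gene and barcode as whole numbers without scaling, for 11789 barcodes with 500 to 174899 UMIs. The study's limits on UMIs and mitochondrial share were applied here, and its ambient RNA removal was not repeated. The members and gene lists were chosen with earlier results of these data known. UMIs were summed per class, and a gene with at least 20 UMIs was called past 2-fold on CPM + 10. With 1 library no test was made. Doublets were scored with Scrublet in scanpy 1.11.5 (expected rate 0.08, threshold 0.266) and kept. Python 3.11.15, numpy 2.4.6, scipy 1.17.1 and pandas 2.3.3 were used. The intervals, the 2-fold call and the thinning were tested on simulated data, and the other steps were not. Coordinates are from GENCODE M21 (GRCm38, as mm10). Genes named were the listed genes, 20 others with the highest and 10 with the lowest ratio to T cells, the 5 with the most UMIs and the 5 leading V genes. Some genes these rules cover are not reported here. Leaving out members with RNA of other lineages and the *Vpreb3* split were added after seeing the data.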

Additional observations from a re-analysis of the deposited data

How the results depend on the processing

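Of 82 alternative values of the 7 main results, 64 stayed within the counting interval, or within 1.5 times for the count of genes, and 18 moved. The B cell share of 3.57% moved to 1.94% with a lower limit of 1500 UMIs, 4.20% with at least 1 rule UMI, 2.84% with at least 3, 3.15% with at least 2 rule genes detected, 5.21% without the 3 exclusions and 3.09% without the 49 members that had over 10% enzyme UMIs or at least 3 UMIs of another lineage. The summed MHC class II level of 4411 CPM moved to 3830, 4039, 2938 and 4925 CPM under the limit of 1500 UMIs, at least 1 rule UMI, no exclusions and without those 49 members, and to 4585 CPM without enzyme UMIs in the total, 5948 CPM with the profile of all barcodes subtracted in proportion to enzyme UMIs and 4873 CPM as the mean of per-cell fractions. The subtraction rests on enzyme UMIs alone, and fibroblast markers lay below such a background. The kappa share of 20.6% moved to 9.65% with calls at 90%. The *Ighd* share of 22.9% and the mature share of 17.96% moved to 18.2% and 14.0% without the exclusions and to 38.7% and 27.1% without thinning. The share called class-switched was 0 in all 10 alternatives run, and the listed genes at least 2-fold above T cells numbered 78 to 88 against 80. No paired analysis was possible because there is 1 library. Depth limits detection in single cells, at a median of 1377 UMIs, and a gene with no UMI in B cells may lie at up to 6.04 CPM (exact upper limit).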
